A study of Homo sapiens with 6 samples.

Results

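The small RNA processing machinery is described here through 10 genes, DROSHA, DGCR8, XPO5, DICER1, TARBP2, PRKRA, AGO1, AGO2, AGO3 and AGO4. They were chosen by name. The Entrez identifiers of the expression table were matched to official symbols, and the rows of these genes were kept, 10 of the 12486 genes listed. RNA-seq was performed on K562, a human chronic myeloid leukemia line that carries the Bcr-Abl fusion, with total RNA from 6 libraries. Cells of the sh-luc group (3 libraries) carried a control shRNA against luciferase, and cells of the sh-up91 group (3 libraries) carried an shRNA against a long noncoding RNA that the labels name lncRNA-up91 and the paper names lncRNA-IUR1. Both shRNAs were delivered by lentivirus and stably expressed, each group rests on 1 shRNA sequence, and the level of the targeted RNA was not analysed here. In each group 1 library is unnumbered and the others carry the numbers 1 and 2. Values are FPKM, fragments scaled to transcript length and to library size, so that levels can be set against each other between genes.

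MicroRNAs are cut from long primary transcripts in the nucleus by the Microprocessor, which joins the nuclease DROSHA to the RNA-binding protein DGCR8. XPO5 carries the resulting hairpin to the cytoplasm, where DICER1, with TARBP2 or PRKRA as partner, trims it to a short duplex. A strand of the duplex is loaded into an Argonaute protein and guides it to messenger RNAs. Short hairpins expressed from a vector enter the same route at the export step, and both groups of cells express such a hairpin.

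The K562 label was checked against its markers. All 18 erythroid-leukemia markers searched for were listed, with HBG2 (gamma globin) the most abundant, between 2559 and 3565 FPKM, and GATA1, the erythroid transcription factor, between 182 and 200 FPKM. Of these 18, 0 passed an adjusted p of 0.05 and 14 had a log2 fold change below 0 (13 without the unnumbered sh-luc library). Of all genes tested 58.0% were above 0, and 52.7% without that library. Beside 23.7% of all genes, 10 of the 18 had their highest value in that library. Their summed FPKM was 8473 there, 6853 and 7508 in sh-luc libraries 1 and 2, and 7007, 6917 and 7377 in the sh-up91 libraries unnumbered, 1 and 2. The groups did not overlap in 1 of the 18, HBE1 (epsilon globin), named after its values were seen, at 173 to 189 FPKM in sh-luc cells and at 163 to 169 FPKM in sh-up91 cells, beside 3.03% of all genes with sh-up91 lower. GYPB, a red cell surface protein, had the smallest p of this list in the lower direction (log2 fold change -0.32, and -0.12 without the unnumbered sh-luc library), and BCR, the partner of ABL1 in the fusion, in the higher, against most of the list (0.16, and -0.02 without it). The part of these markers in the values given below was not tested. Of 8 T cell markers 3 were listed, all of them subunits of the CD3 complex. CD3D was the most abundant, at 3.51 to 4.96 FPKM, whereas CD3E and CD3G, named after their values were seen, did not exceed 0.18 and 0.29 FPKM in any library. Of 8 monocyte and granulocyte markers 2 were listed, and LYZ (lysozyme) among them reached 107 to 119 FPKM, whereas FCGR1A, an Fc receptor, lay between 0.10 and 0.32 FPKM. Of 5 markers of the kidney line used to package lentivirus 2 were listed, and the more abundant, PAX8, lay between 0.42 and 0.74 FPKM.

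The unnumbered sh-luc library stood apart from the other 5. Its median correlation with them over log2(FPKM + 1) was 0.9944, against 0.9973 to 0.9979 for the others. Of the 12276 genes tested, 37.5% had their lowest value in it and 23.7% their highest. In sh-up91 library 1, the next furthest by correlation, 22.2% were lowest and 25.8% highest, and 3 of the 10 members were lowest there, against 5 in the unnumbered sh-luc library. All 18 listed genes of the integrated stress response, the program that follows phosphorylation of the initiation factor eIF2, were lowest in this library. Their summed FPKM was 1226 there, 2428 and 2159 in sh-luc libraries 1 and 2, and 2409, 2692 and 2019 in the sh-up91 libraries unnumbered, 1 and 2. SLC7A11, the cystine transporter, had the smallest p of this list (log2 fold change 0.44, and 0.15 without that library). DDIT4, the most abundant of them, stood at 169 FPKM in the unnumbered sh-luc library and at 479 to 620 FPKM elsewhere. None of the 18 was at 0: the markers ATF4, DDIT3 and TRIB3 stood at 252, 41.9 and 35.5 FPKM there. Their part in the values given below was not tested, and values without this library are given beside the results.

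For the knockdown as a whole, 0 of the 10 members passed an adjusted p of 0.05 in limma, where 0% of all 12276 genes did and the smallest adjusted p of any gene was 0.93. At an unadjusted p under 0.05, 0 members were higher and 0 lower in sh-up91 cells, beside 203 genes (1.65%) higher and 122 genes (0.994%) lower. Of the genes under that threshold 62.5% were higher, and 43.1% were higher after quantile normalization. Leaving out sh-luc library 1 raised the count of genes from 325 to 856 and leaving out sh-up91 library 2 raised it to 711, while leaving out the unnumbered sh-up91 library lowered it to 158. The count of members under the threshold was 0 in each of these fits, and it was also 0 without the unnumbered sh-luc library, where 1.16% of genes were higher and 0.635% lower under the threshold (221 genes). In all 10 members the values of both groups overlapped, beside 4.04% of genes with every sh-up91 library above and 3.03% with every sh-up91 library below the sh-luc libraries. The median log2 fold change of the members was 0.02, as was that of all genes tested (log2 of FPKM + 1, sh-up91 minus sh-luc). The 95% intervals of the members all held 0 and ran at most from -0.26 to 0.32. Without the unnumbered sh-luc library the members' median was -0.02 and that of all genes 0.0047.

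**Figure D1:**
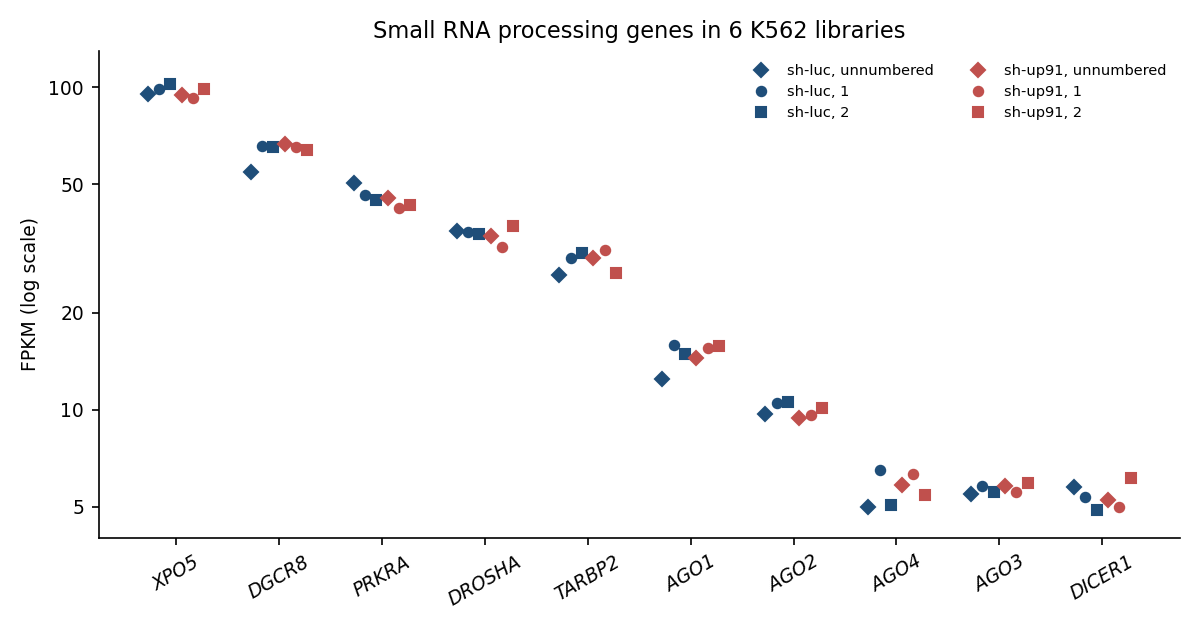
FPKM (log axis) of each member in each of the 6 libraries, ordered by mean, with blue for sh-luc, red for sh-up91 and the symbol shape for the replicate label. XPO5 lies near 100 FPKM and DICER1, AGO3 and AGO4 near 5, and the blue and red symbols of every member overlap.

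The levels ran from XPO5, with a mean of 97.1 FPKM over the 6 libraries, to DICER1, with 5.39 FPKM, a ratio of 18.0. Between them came DGCR8 (63.6), PRKRA (45.4), DROSHA (35.0), TARBP2 (29.0), AGO1 (14.8), AGO2 (9.98), AGO4 (5.69) and AGO3 (5.68 FPKM on average). From XPO5 down to AGO4, each gene exceeded the next in all 6 libraries with no overlap of their ranges. AGO4, AGO3 and DICER1 did not separate: AGO4 exceeded AGO3 in 3 of 6 libraries, and AGO3 exceeded DICER1 in 4 of 6. The mean of XPO5 stood at percentile 92.7 of all genes listed and that of DICER1 at percentile 35.9. Variation over the 6 libraries was smallest for AGO3, with a coefficient of variation of 3.06%, and largest for AGO4, with 11.3%. Summed over the members, FPKM lay between 301 in the unnumbered sh-luc library and 320 in sh-luc library 1.

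The Microprocessor comes first in the pathway. DROSHA, its RNase III nuclease, stood at 35.8, 35.5 and 35.0 FPKM in the sh-luc libraries unnumbered, 1 and 2, and at 34.6, 32.0 and 37.2 FPKM in the sh-up91 libraries in the same order. The lowest and the highest value both came from sh-up91 cells and enclosed all sh-luc values. Its log2 fold change was -0.04 (SE 0.07, adjusted p = 0.951), and -0.03 without the unnumbered sh-luc library. DROSHA is a minus-strand gene of chromosome 5 and spans 31400494 to 31532093 (GRCh38.p14).

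DGCR8, which binds the upper stem and apical part of the primary hairpin, stood at 54.5, 65.8 and 65.5 FPKM in the sh-luc libraries and at 66.7, 65.5 and 63.8 FPKM in the sh-up91 libraries. The unnumbered sh-luc library was low and the other 5 lay together. The log2 fold change of DGCR8 was 0.08 (SE 0.08, adjusted p = 0.93), and -0.01 without that library. The gene spans chromosome 22 from 20080241 to 20111872 on the plus strand.

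DGCR8 messenger RNA is itself a known substrate of the Microprocessor, which cuts hairpins near its 5′ end, so the microRNAs annotated inside it are shown. RefSeq places 2 hairpins, MIR3618 and MIR1306, within the gene. In the canonical GENCODE transcript all 3 mature sequences fall in exon 2, miR-3618 in the 5′ UTR and both arms of miR-1306 in the coding sequence. Their coordinates on the plus strand are chr22:20085797-20085818 for miR-3618, chr22:20086072-20086093 for miR-1306-5p and chr22:20086112-20086129 for miR-1306-3p. Capitals mark the seed, bases 2 to 8, and the 3 seeds differ from each other.
miR-3618: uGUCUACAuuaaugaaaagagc
miR-1306-5p: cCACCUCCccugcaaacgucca
miR-1306-3p: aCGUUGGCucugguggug

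The FPKM of DGCR8 cannot be divided into whole and cut transcripts. The ratio of DROSHA to DGCR8 FPKM, in which the scaling of a library cancels, was 0.656, 0.540 and 0.534 in the sh-luc libraries and 0.519, 0.488 and 0.583 in the sh-up91 libraries. It was highest in the unnumbered sh-luc library, and the remaining sh-luc values lay within the sh-up91 range. The mean log2 ratio differed by -0.12 (two-sided exact permutation p = 0.4, adjusted over the 3 ratio tests 0.5), and by -0.02 without the unnumbered sh-luc library (exact p = 0.8). With 3 libraries against 3 the smallest exact p is 0.1.

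Of the 10 members, 5 were lowest in the unnumbered sh-luc library (DGCR8, TARBP2, AGO1, AGO3 and AGO4), beside 37.5% of all genes tested. PRKRA was highest there, beside 23.7% of genes. The members furthest below their mean in that library were AGO1, by -0.23 on the log2 scale, and DGCR8, by -0.22. AGO4 lay at -0.16, TARBP2 at -0.13 and AGO3 at -0.05, and the median of the integrated stress genes lay at -0.86. The RefSeq windows from 250 bases before to 50 bases after the starts of the members were searched on either strand for 4 motifs. The CCAAT matches of DGCR8 and AGO1 are shown because these genes lay furthest below their mean there, a choice made after the values were seen. A link between matches and levels was not tested. G and C made up 59.0% (TARBP2) to 80.3% (DGCR8) of the first windows listed for the members, beside a median of 58.7% over all windows. For the CCAAT box (CCAAT, which reads ATTGG on the other strand), the window of DGCR8 held 4 matches and that of AGO1 held 1, and 34.6% of all 35116 windows held at least 1. Among the other members, in the first window listed for each, DROSHA and TARBP2 held 3 each, DICER1 and PRKRA 1 each, and XPO5, AGO3 and AGO4 held 0. The ATF4 element TGATGNAA, the letters bound by a factor of the stress response, was in 3.62% of all windows. It had 0 matches in the first window listed for each of the 9 members with a window. The same held for the E-box CACGTG, in 7.26% of all windows. The GC box GGGCGG, in 45.0% of all windows, was counted in the same first windows. It had 6 matches in PRKRA, 3 in DGCR8, 2 each in DROSHA, XPO5, AGO1 and AGO3, 1 each in DICER1 and TARBP2 and 0 in AGO4. The sequences below give each match in capitals with 12 bases on either side, on the plus strand of GRCh38.p14. The DGCR8 matches lie at chr22:20080101-20080129, chr22:20080142-20080170, chr22:20080176-20080204 and chr22:20080202-20080230, and the AGO1 match at chr1:35883119-35883147, a start inside the longer RefSeq span of AGO1.
DGCR8 match 1: cgcggccgcgctATTGGgccgcgcgcggc
DGCR8 match 2: tacgcgccgccgATTGGcggcctccgcag
DGCR8 match 3: tctgcggctcccCCAATgcggggcggccg
DGCR8 match 4: ccgcgcgcggggATTGGccgcacgccgcg
AGO1 match 1: ccgcccctctccATTGGcctttgttgccg

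**Figure D2:**
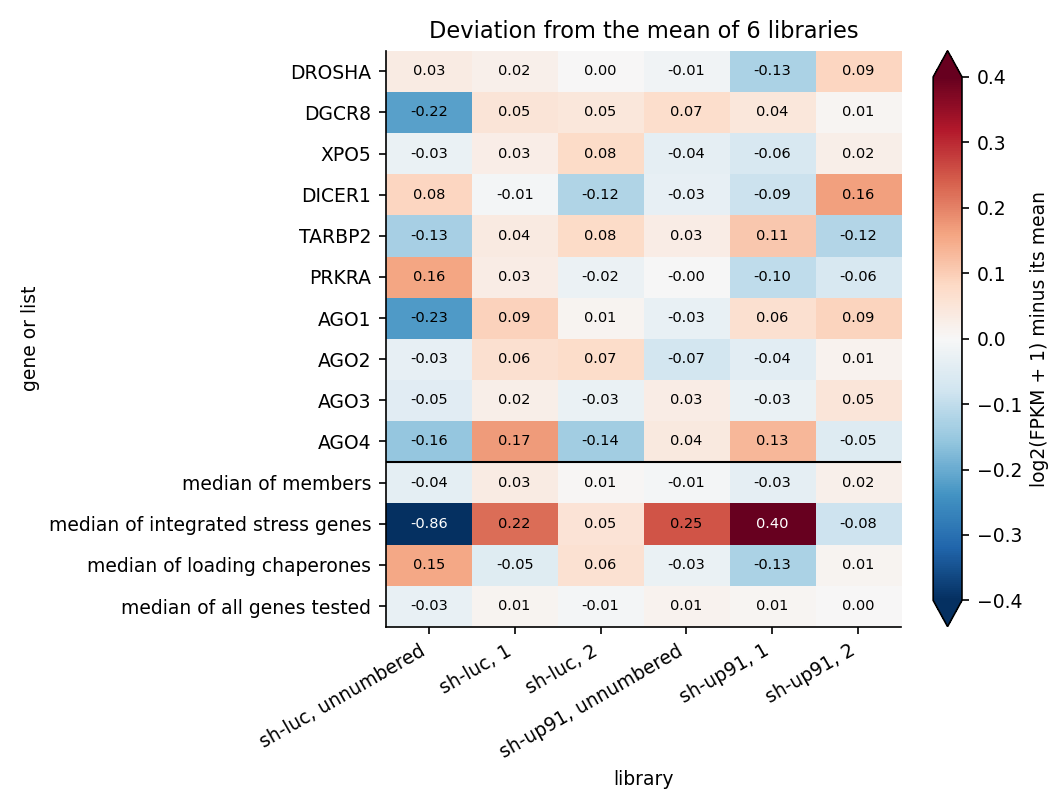
Deviation of log2(FPKM + 1) from the mean over the 6 libraries, for each member and for the median of 4 sets of genes, with red above and blue below the mean and the color scale ending at 0.4 either way. DGCR8 and AGO1 are lowest in the unnumbered sh-luc library (-0.22 and -0.23), where the integrated stress genes have a median of -0.86 and all genes tested a median of -0.03.

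XPO5, the exportin that takes precursor hairpins through the nuclear pore together with RAN bound to GTP, stood at 95.4, 98.9 and 102 FPKM in the sh-luc libraries and at 94.7, 92.9 and 98.7 FPKM in the sh-up91 libraries. The groups overlapped through the unnumbered sh-luc library, and both numbered sh-luc libraries lay above every sh-up91 library. Its log2 fold change was -0.05 (SE 0.06, adjusted p = 0.93) with all libraries and -0.08 without the unnumbered sh-luc library. XPO5 and AGO2 were the 2 members whose groups were separated, with sh-up91 lower, once that library was left out, where 6.18% of all genes were so separated, and 0 members were separated with sh-up91 higher, where 6.43% of genes were. The gene spans chromosome 6 from 43522334 to 43576038 and overlaps POLR1C. The strand used in counting is not given in the sources used here, so reads from the overlap cannot be assigned.

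DICER1, the nuclease that removes the loop of the precursor, stood at 5.76, 5.34 and 4.87 FPKM in the sh-luc libraries and at 5.23, 5.0 and 6.14 FPKM in the sh-up91 libraries. The sh-luc values fell inside the wider sh-up91 range but for sh-luc library 2, which was the lowest of all. The log2 fold change of DICER1 was 0.03 (SE 0.10, adjusted p = 0.968), and 0.08 without the unnumbered sh-luc library. Quantile normalization turned its sign, to -0.02. The gene spans 95086228 to 95158010 of chromosome 14, on the minus strand, beside the antisense gene DICER1-AS1, which overlaps it.

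DICER1 messenger RNA is a known target of miR-103 and miR-107, so its sites for this pair are shown. Their mature sequences have the same seed, in capitals, and its complement in a messenger RNA is ATGCTGC. These mature sequences lie at chr5:168560904-168560926 (minus strand) for miR-103a-3p and chr10:89592756-89592778 (minus strand) for miR-107.
miR-103a-3p: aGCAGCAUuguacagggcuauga
miR-107: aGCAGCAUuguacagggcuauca

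The 3′ UTR of the canonical DICER1 transcript, 4270 bases long, held 5 such matches, whereas 12.5% of the 3′ UTRs of 19229 protein-coding genes, with a median length of 1064 bases, held at least 1. The 3′ UTRs of DROSHA, DGCR8, XPO5 and PRKRA held 0, and that of TARBP2, 283 bases long, held 1. Those of the Argonautes held 3 (AGO1), 5 (AGO2), 1 (AGO3) and 2 (AGO4), in lengths of 10925, 11888, 16755 and 4285 bases, so that AGO2 held as many as DICER1. The let-7 seed complement CTACCTC had 2 matches in the 3′ UTR of AGO2, 1 each in those of TARBP2, AGO1 and AGO3 and 0 in those of DICER1 and the remaining members, and was in 9.71% of all 3′ UTRs. MicroRNA levels were not analysed here, and a match alone does not show binding. Each DICER1 match is given in capitals with 11 bases on either side, read on the minus strand, in the order of the transcript, at chr14:95089447-95089475, chr14:95088846-95088874, chr14:95087642-95087670, chr14:95086371-95086399 and chr14:95086319-95086347.
DICER1 site 1: acacctaaaatATGCTGCagattttataa
DICER1 site 2: tgcttcgtggaATGCTGCatttatatgta
DICER1 site 3: cagtcctaactATGCTGCgttttataata
DICER1 site 4: tttaccatcacATGCTGCagctgtttttt
DICER1 site 5: atacagtaatcATGCTGCagaaatttgca

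TARBP2, a double-stranded RNA-binding partner of Dicer that helps to load Argonaute, stood at 26.3, 29.7 and 30.6 FPKM in the sh-luc libraries and at 29.5, 31.2 and 26.6 FPKM in the sh-up91 libraries. In each group 1 library was low, the unnumbered library of sh-luc and library 2 of sh-up91. The log2 fold change of TARBP2 was 0.01 (SE 0.08, adjusted p = 0.981), and -0.05 without the unnumbered sh-luc library.

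PRKRA, the other such partner, also known as an activator of the kinase PKR, stood at 50.7, 46.3 and 44.6 FPKM in the sh-luc libraries and at 45.2, 42.2 and 43.3 FPKM in the sh-up91 libraries. The unnumbered sh-luc library was the highest, and sh-up91 cells held the lowest values with an overlap between groups at 44.6 and 45.2 FPKM. With all 6 libraries PRKRA had the largest fold change of the members in size, -0.11 on the log2 scale (SE 0.07, 95% interval -0.26 to 0.04, adjusted p = 0.93). It was -0.06 without the unnumbered sh-luc library, where AGO2 (-0.10), DICER1 (0.08) and XPO5 (-0.08) were larger in size. Its mean was 47.2 ± 3.15 FPKM in sh-luc cells and 43.6 ± 1.54 FPKM in sh-up91 cells (SD, n = 3 each). TARBP2 spans chromosome 12 from 53500923 to 53506431 and PRKRA chromosome 2 from 178431414 to 178451175. Each has an annotated pseudogene, and each overlaps another gene (MAP3K12 for TARBP2, CHROMR for PRKRA). The share of their reads that comes from a pseudogene or from the overlap is uncertain.

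The ratio of PRKRA to TARBP2 FPKM was 1.93, 1.56 and 1.46 in the sh-luc libraries and 1.53, 1.35 and 1.63 in the sh-up91 libraries. PRKRA exceeded TARBP2 in all 6 libraries, by most in the unnumbered sh-luc library. The mean log2 ratio differed by -0.13 between groups (two-sided exact permutation p = 0.5, adjusted 0.5) and by -0.01 without that library (exact p = 1.0).

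**Figure D3:**
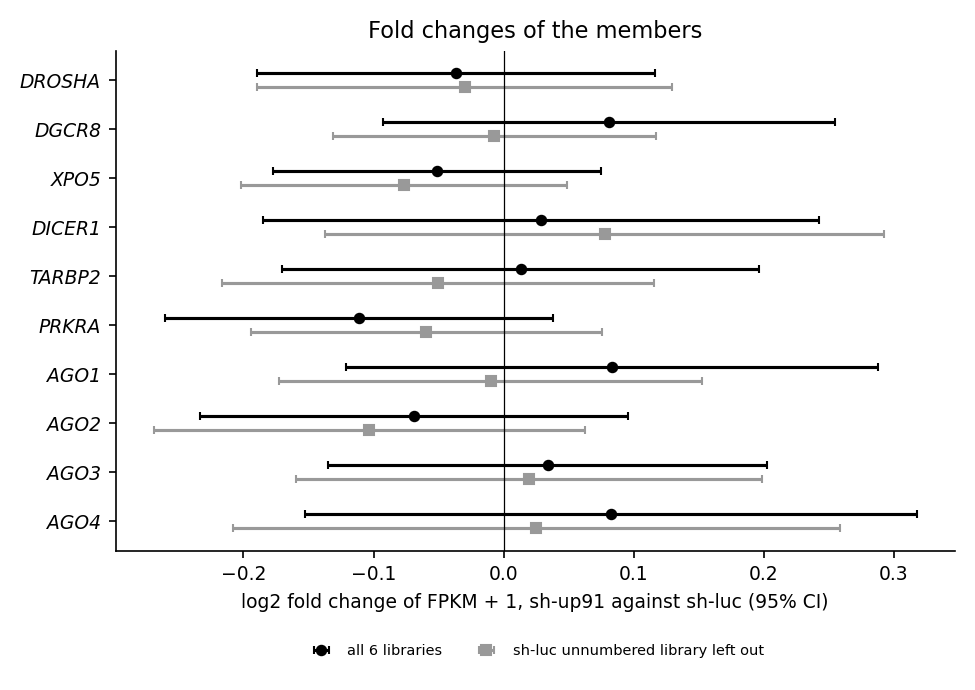
Log2 fold change of FPKM + 1, sh-up91 against sh-luc, for each member with its 95% confidence interval from limma, in black for all 6 libraries and in gray with the unnumbered sh-luc library left out. Every interval crosses 0, and the points of DGCR8, AGO1 and TARBP2 move from above to below 0 when that library is left out.

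Among the Argonautes, the proteins that hold the guide strand, AGO1 was the most abundant. It stood at 12.5, 15.8 and 14.9 FPKM in the sh-luc libraries and at 14.5, 15.5 and 15.8 FPKM in the sh-up91 libraries. The unnumbered sh-luc library was low and the other 5 lay within 14.5 to 15.8 FPKM. The log2 fold change of AGO1 was 0.08 (SE 0.09, adjusted p = 0.93), and -0.01 without that library.

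AGO2, the Argonaute whose slicing activity cleaves a fully paired target and on which knockdown by an shRNA relies, stood at 9.72, 10.5 and 10.6 FPKM in the sh-luc libraries and at 9.42, 9.65 and 10.1 FPKM in the sh-up91 libraries. Here too the groups overlapped through the unnumbered sh-luc library. The mean was 10.2 ± 0.458 FPKM in sh-luc cells and 9.72 ± 0.340 FPKM in sh-up91 cells (SD, n = 3 each). The log2 fold change of AGO2 was -0.07 (SE 0.07, 95% interval -0.23 to 0.10, adjusted p = 0.93) with all libraries and -0.10 (95% interval -0.27 to 0.06) without the unnumbered sh-luc library.

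AGO3 and AGO4, for which roles apart from the other Argonautes are less well known, were the least abundant of the family. AGO3 lay between 5.47 and 5.78 FPKM in sh-luc cells and between 5.56 and 5.90 FPKM in sh-up91 cells, with a log2 fold change of 0.03, and 0.02 without the unnumbered sh-luc library. AGO4 stood at 4.98, 6.5 and 5.05 FPKM in the sh-luc libraries and at 5.85, 6.31 and 5.43 FPKM in the sh-up91 libraries, with a log2 fold change of 0.08, 0.025 without the unnumbered sh-luc library, in which AGO4 was lowest, and 0.19 without sh-luc library 1, in which it was highest. The sh-luc libraries of AGO4 differed among themselves by more than the groups did. AGO4, AGO1 and AGO3 lie in this order on the plus strand of chromosome 1, with 11870 bases between AGO4 and AGO1 and 185 bases between AGO1 and AGO3. Without strand or junction information, reads near the end of AGO1 and the start of AGO3 may be uncertain in their assignment.

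Of the summed FPKM of AGO1 to AGO4, AGO2 made up 29.8%, 27.1% and 29.3% in the sh-luc libraries and 26.5%, 26.1% and 27.1% in the sh-up91 libraries. All sh-up91 shares lay below the sh-luc shares, but the nearest pair, 27.131% in sh-luc library 1 and 27.116% in sh-up91 library 2, was separated by 0.015 percentage points, less than the 0.020 points by which the rounding of FPKM to 2 decimals can move the former. The mean share was 28.7 ± 1.40% in sh-luc cells and 26.6 ± 0.531% in sh-up91 cells (SD, n = 3 each), a difference of -2.17 percentage points (two-sided exact permutation p = 0.1, the smallest this design allows, adjusted over the 3 ratio tests 0.3). Without the unnumbered sh-luc library the difference was -1.64 percentage points (exact p = 0.1). With any 1 of the sh-up91 libraries left out, the exact permutation p was 0.2. The AGO1 share was 40.2 ± 1.71% and 41.7 ± 0.885% in the same order, and the summed FPKM of the family was 35.8 ± 2.98 and 36.6 ± 0.911 (SD, n = 3 each). Leaving out the unnumbered sh-luc library moved the difference in AGO1 share, sh-up91 minus sh-luc, from 1.48 to 0.493 percentage points and turned that in summed FPKM from 0.837 to -0.718.

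**Figure D4:**
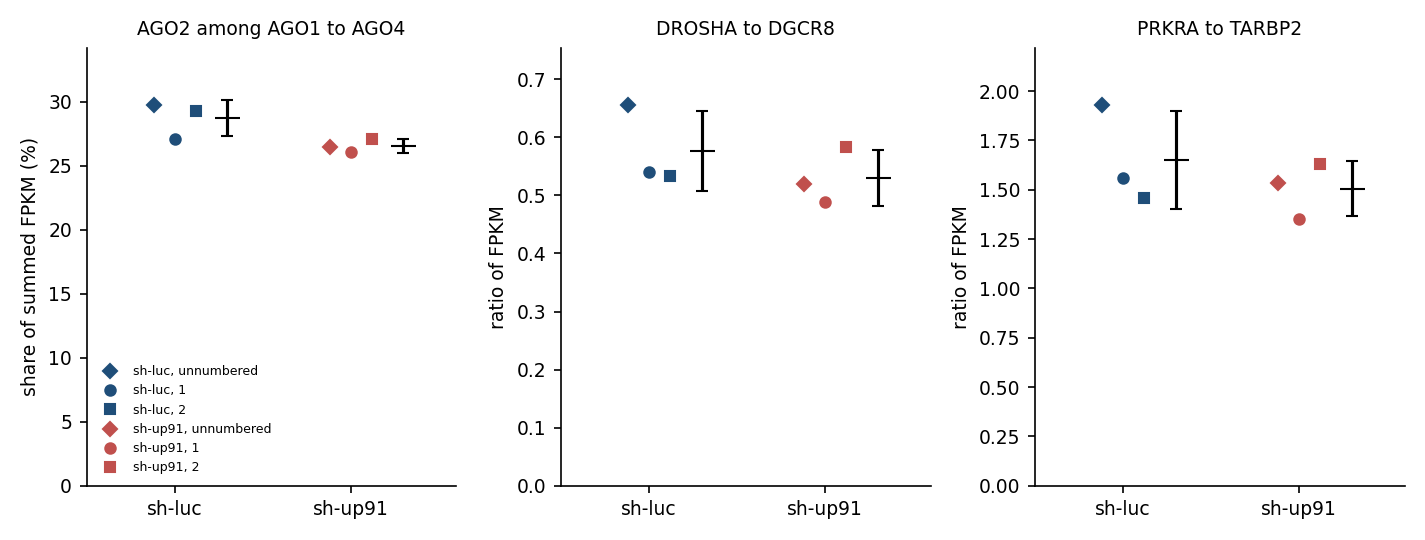
The AGO2 share of summed AGO1 to AGO4 FPKM (%), the DROSHA to DGCR8 ratio and the PRKRA to TARBP2 ratio in each library, with the mean and SD of each group (n = 3) as black bars and all axes starting at 0. The sh-luc shares reach from 27.1% to 29.8% and the sh-up91 shares from 26.1% to 27.1%, and both ratios are highest in the unnumbered sh-luc library.

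The wider pathway was described by lists of genes around the members, 86 of 87 of them listed. In limma 0 of these 86 passed an adjusted p of 0.05, and 1 was under an unadjusted p of 0.05, FKBP4, in the lower direction, beside 0.994% of all genes. Without the unnumbered sh-luc library 0 of the 86 were under that threshold. Of all genes tested 58.0% had a log2 fold change above 0, and 52.7% without that library, against which the counts by sign below are to be read. The median log2 fold change of the 86 was -0.02, beside 0.02 for all genes tested. It was -0.01 without the unnumbered sh-luc library and turned to 0.01 without sh-up91 library 1.

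Around the Microprocessor, 0 of 13 cofactors passed the test, and 11 of 13 had a log2 fold change below 0 with a median of -0.11. Without the unnumbered sh-luc library 2 of 13 were above 0, as with it, and the median was -0.04. In that library 10 of the 13 had their highest value, beside 23.7% of all genes. HNRNPA1, an RNA-binding protein that aids the processing of particular hairpins, was the most abundant at 1247 to 1478 FPKM. SRSF3, a splicing factor that reads a motif beside the hairpin, had the smallest p in the lower direction, with 108 FPKM in the unnumbered sh-luc library, 86.6 and 88.5 FPKM in the numbered ones, and 81.2, 70.6 and 90.1 FPKM in sh-up91 cells (log2 fold change -0.22, adjusted p = 0.93, and -0.12 without the unnumbered sh-luc library). NCBP1, a subunit of the cap-binding complex, had the smallest p in the higher direction (log2 fold change 0.08, and 0.06 without the unnumbered sh-luc library). At the export step 0 of 5 partners passed. RANBP1, a RAN-binding cofactor of GTP hydrolysis, was the most abundant (938 to 1222 FPKM) with a log2 fold change of -0.16, and -0.07 without that library. RANBP2, a pore protein, had 0.07, and 0.15 without it.

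The loading chaperones hold Argonaute open for the duplex. Of 12 genes, 0 passed an adjusted p of 0.05 and 2 had a log2 fold change above 0 (3 without the unnumbered sh-luc library). In that library 9 of the 12 were highest, beside 23.7% of all genes. The median log2 fold change of the 12 was -0.11, and -0.06 without that library. Their summed FPKM was 4946 there, 3841 and 4131 in the other sh-luc libraries, and 3801, 3425 and 4163 in the sh-up91 libraries. HSPA8, the constitutive HSP70, named after its values were seen, stood at 1237, 591 and 729 FPKM in the sh-luc libraries and at 564, 388 and 773 FPKM in the sh-up91 libraries. It had the largest fold change in size of the 86 genes, -0.55 on the log2 scale (SE 0.28, adjusted p = 0.93), and -0.25 without the unnumbered sh-luc library. HSP90AB1, a constitutive HSP90, was the most abundant, at 1600 to 1899 FPKM. FKBP4, an HSP90 co-chaperone, stood at 98.0, 82.2 and 93.5 FPKM in sh-luc cells and at 76.5, 77.2 and 87.4 FPKM in sh-up91 cells (log2 fold change -0.18, adjusted p = 0.93, and -0.13 without that library), and the groups overlapped. CDC37, an HSP90 co-chaperone for kinases, had the smallest p in the higher direction (log2 fold change 0.04, and 0.03 without the unnumbered sh-luc library).

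Of 34 silencing effectors, which act with Argonaute in deadenylation, decapping and decay, 0 passed the test and 23 had a log2 fold change above 0, 17 without the unnumbered sh-luc library. PABPC1, the poly(A)-binding protein, was the most abundant at 999 to 1032 FPKM. PATL1, a decapping activator, stood at 28.4, 28.6 and 28.4 FPKM in sh-luc cells and at 26.0, 25.6 and 26.7 FPKM in sh-up91 cells, without overlap (log2 fold change -0.12, adjusted p = 0.93, and -0.12 without the unnumbered sh-luc library). It was 1 of 2 genes of the list with sh-up91 below sh-luc in every library, beside 3.03% of all genes. The other was WTIP, named after its values were seen, at 0.26 to 0.32 FPKM against 0.34 to 0.46 FPKM. DCP1B, a decapping cofactor, had the smallest p in the higher direction (log2 fold change 0.19, adjusted p = 0.93), and 0.11 without the unnumbered sh-luc library.

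Of the 22 listed precursor modifiers and small RNA nucleases, 0 passed and 8 had a log2 fold change above 0 (7 without the unnumbered sh-luc library), with a median of -0.02, and -0.01 without it. SND1, a nuclease of edited and mature small RNAs, was the most abundant, at 103 to 119 FPKM. TUT1, a terminal uridylyltransferase, stood at 16.1 FPKM in the unnumbered sh-luc library and at 18.96 to 24.7 FPKM in the others (log2 fold change 0.14, and -0.01 without that library). TENT4A, a noncanonical poly(A) polymerase, had a log2 fold change of -0.21, and -0.12 without that library.

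The genes whose log2(FPKM + 1) over the 6 libraries was most like that of DROSHA, DICER1 and AGO2 were sought among 8202 others that averaged 5 FPKM or more. They are a description of 6 libraries that share the stress difference named above. For DROSHA these were NFATC2IP (r = 0.991) and ICE1 (r = 0.990), which like DROSHA were lowest in sh-up91 library 1 and highest in sh-up91 library 2. For DICER1 they were UBA6 (r = 0.988) and DHX57 (r = 0.986), and for AGO2 CYFIP1 (r = 0.976) and DIAPH1 (r = 0.975). With so many genes and 6 libraries, 28 genes had an r over 0.95 with DROSHA, 22 with DICER1 and 5 with AGO2.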

How the data were processed

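The authors trimmed adaptors, masked low-quality sequence and mapped reads to hg38. The paper names RPKM (SAMtools 0.1.19), and the deposited values are headed FPKM, with 2 decimals. The authors also deposited a score (the z-score of each gene over the 6 libraries), a cluster number and a fraction (cluster membership), which no test used. The table lists genes with an SD of 0.05 FPKM or more, so steadier genes are outside every count. Whole reads were not recovered. Each depth tried was shared by all 6 libraries, so a separate depth for each library was not sought. At best 40.1% of 157 low values of single-exon genes came out within 0.1 fragments of a whole number. Evenly spread values would give 20%, and the median over the depths tried was 19.7%. This search cannot give the depth of a library, which remains unknown here. The rounding to 2 decimals makes values of low genes imprecise.

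log2(FPKM + 1) of the 12276 genes that averaged 0.1 FPKM or more was fitted with limma 3.58.1 (R 4.3.3, eBayes with trend), tested on simulated data, with Benjamini-Hochberg adjustment. Shares and ratios were compared by two-sided exact permutation tests. Python 3.11.15, numpy 2.4.6, pandas 2.3.3 and matplotlib 3.10.9 were used. Symbols, coordinates, microRNAs and promoters came from RefSeq GRCh38.p14 and transcripts from GENCODE release 44; 9 of 10 members had a promoter window. The libraries are called independent in the paper's methods, and p-values measure only the spread between them. Named genes were the members, in each list the most abundant gene and the smallest p in each direction, and the 2 genes most like DROSHA, DICER1 and AGO2; others are said to be named after their values were seen or are markers or list members named for their role. Members and lists were chosen with earlier results of these data known. Alternatives were another pseudocount, filter, scaling or eBayes prior, the replicate block and each library left out. The values without the unnumbered sh-luc library beside counts were added after seeing the data.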

Additional observations from a re-analysis of the deposited data

How the results depend on the processing

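The count of genes at an adjusted p under 0.05 in limma was 0 under all 13 alternatives, and so was the count of members at an unadjusted p under 0.05. Deviations of same-numbered libraries from their group means correlated at 0.04 (unnumbered), 0.39 (1) and -0.34 (2). Libraries with unlike numbers were not compared in this way, so whether the replicate numbers pair libraries was not settled. With the replicate block, 533 genes were at an unadjusted p under 0.05, against 325 without it. In the AGO2 share the exact sign-flip p of the same-numbered differences was 0.25, the smallest that 3 pairs allow, and the block cannot move the difference itself. Leaving out 1 library at a time gave 158 to 856 such genes. The median log2 fold change of the members was -0.013 after quantile normalization and between -0.020 and 0.033 with 1 library left out. The cause was not tested.

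The filters, eBayes without a trend and the block, 4 of the 13 alternatives, leave the members' log2 fold changes as they are by construction. Of the 90 values under the others, 10 changed sign, for 6 members, and none was called. With 1 library left out the ranges were -0.089 to 0.018 for DROSHA, -0.0073 to 0.13 for DGCR8, -0.046 to 0.079 for DICER1, -0.050 to 0.075 for TARBP2, -0.0099 to 0.15 for AGO1, -0.077 to -0.026 for XPO5, -0.15 to -0.059 for PRKRA, -0.10 to -0.049 for AGO2, 0.019 to 0.055 for AGO3 and 0.025 to 0.19 for AGO4 (0.19 without sh-luc library 1). DICER1 was at -0.020 and AGO3 at -0.0070 after quantile normalization, and TARBP2 at -0.0070 after median-ratio scaling. XPO5, PRKRA and AGO2 stayed below 0 and AGO4 above 0 under each of these. The AGO2 share difference ranged from -2.96 to -1.64 percentage points, and the log2 ratio differences from -0.19 to -0.023 (DROSHA to DGCR8) and from -0.21 to -0.0086 (PRKRA to TARBP2), each with 1 library left out.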

Other observations

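The germline branch of small RNA silencing, which uses PIWI proteins, was searched for with 21 genes, of which 7 were listed and 0 passed an adjusted p of 0.05 in limma. The PIWI proteins themselves (PIWIL1, PIWIL2, PIWIL3 and PIWIL4) were searched for but were not among the 7, so their levels cannot be given. GTSF1, a zinc finger partner of PIWI proteins, was the most abundant, at 231, 225 and 222 FPKM in the sh-luc libraries and at 235, 234 and 212 FPKM in the sh-up91 libraries, above XPO5 and every other member in each library. PLD6, a mitochondrial phospholipase-like nuclease of that branch, stood at 7.79 to 11.7 FPKM, and MOV10L1, an RNA helicase of it, at 0.23 to 0.61 FPKM. The log2 fold change of MOV10L1 was 0.17 (adjusted p = 0.93), and 0.24 without the unnumbered sh-luc library, where it was the 1 gene of the 7 under an unadjusted p of 0.05 (adjusted p = 1.0), beside 1.16% of all genes higher and 0.635% lower in that fit. That of PLD6 was -0.18, and -0.05 without that library.

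Among 12 listed sensors of double-stranded RNA, 11 were tested and 0 passed an adjusted p of 0.05. The groups did not overlap in 1 of the 11 with sh-up91 higher and in 1 with sh-up91 lower, beside 4.04% and 3.03% of all genes. DHX9, an RNA helicase, was the most abundant, at 90.7 to 129 FPKM. OAS3, an oligoadenylate synthetase, was the 1 gene of the 11 at an unadjusted p under 0.05 in limma, in the higher direction, beside 1.65% of all genes. It stood at 0.63, 0.64 and 0.57 FPKM in the sh-luc libraries and at 0.86, 0.83 and 0.79 FPKM in the sh-up91 libraries (log2 fold change 0.18, adjusted p = 0.93, and 0.19 without the unnumbered sh-luc library). EIF2AK2 (PKR), named after its values were seen, lay at 7.86 to 8.31 FPKM in sh-luc cells and at 7.53 to 7.71 FPKM in sh-up91 cells, without overlap (log2 fold change -0.06, adjusted p = 0.931, and -0.07 without the unnumbered sh-luc library).

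LIN28B, an inhibitor of let-7 maturation, also named after its values were seen, stood at 14.8, 11.7 and 12.1 FPKM in the sh-luc libraries and at 13.5, 11.5 and 13.5 FPKM in the sh-up91 libraries. It was highest in the unnumbered sh-luc library. Its log2 fold change was -0.0013, and 0.097 without that library. The listed genes with the symbol of a noncoding microRNA host gene (MIR followed by HG) were MIR1915HG, MIR9-1HG and MIR3667HG, and none of these exceeded the 2.32 FPKM of MIR1915HG in the unnumbered sh-up91 library.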
